A study of Mus musculus with 16 samples.

Results

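The heat shock protein and J protein genes of the mouse were described in fibroblasts from mice with mucopolysaccharidosis type I (MPS I), a lysosomal storage disease in which the enzyme alpha-L-iduronidase is deficient and glycosaminoglycans accumulate. Members were chosen by a rule on gene symbols, which was set with earlier results of these data known. It took the HSP90 genes, the Hspa, Hspb, Hspd, Hspe and Hsph genes, and the Dnaja, Dnajb and Dnajc genes. The rule found 72 members among 21903 gene symbols on the array, each read by 1 transcript cluster (the set of probes that reads 1 gene) of 22206. The study asked how the flavonoids genistein (G) and kaempferol (K), alone and combined, change gene expression in these cells, and RNA from 16 cultures was hybridised to 16 Affymetrix Clariom S arrays. The cultures received 60 µM G, 120 µM G, 60 µM K, 120 µM K, or a 1:1 mixture at a total of 60 µM (30 µM of each) or 120 µM (60 µM of each), against controls with 0.05% DMSO or 0.1% DMSO. Each of the 8 groups had 2 arrays after 24 h of treatment. K is a flavonol and G is an isoflavone, so they differ in where the side ring is attached and in a hydroxyl group. All cultures, controls included, were primary skin cells from tails of MPS I mice. No healthy cells were arrayed, the labels do not name the disease allele, and they do not say how many mice gave cells. The labels call the 2 arrays of a group biological replicates, and the p-values below measure only the spread between such arrays. As the study's methods pair them, single compounds were compared with 0.05% DMSO and mixtures with 0.1% DMSO, although the labels give 0.05% DMSO for all treated cultures. In such bulk samples, fewer cells of a type and less RNA per cell cannot be told apart.

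Heat shock proteins are chaperones that keep other proteins folded. HSP70 proteins bind short exposed stretches of a client, J proteins (the Dnaj genes) bring clients and trigger ATP hydrolysis, and HSP110 proteins release ADP so that the cycle starts again. HSP90 proteins mature kinases and receptors, the small HSPs hold unfolded proteins without using ATP, and the chaperonin Hspd1 with its lid Hspe1 folds proteins inside mitochondria. In stressed cells the factor HSF1 switches on many of these genes through heat shock elements, while the chaperones of the endoplasmic reticulum (ER) answer to a separate unfolded protein response. The symbols do not keep to the cytosol and the mitochondrion. Of the 72 members, 14 were listed as working in the ER, Hspa5 and Hsp90b1 among them, 7 were listed as mitochondrial and 51 were placed in neither. This list need not hold every member of a compartment.

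Promoter windows of RefSeq (GRCm38.p6, from 250 bases before to 50 bases after each gene start, 300 bases long) were matched by symbol for 58 of the 72 members. The heat shock element was searched as GAA, any 2 bases, TTC, any 2 bases and GAA, and the ER stress element as CCAAT, any 9 bases and CCACG, each on both strands. The heat shock element stood in 198 of 32851 windows (0.603%) and the ER stress element in 39 (0.119%). Among the members, Dnajb6, Hspd1, Hspe1 and Hsph1 held the heat shock element, and Dnajc3, Hsp90b1 and Hspa5 the ER stress element. The stretches are shown because they belong to the member with the largest rise (Hsph1), to the mitochondrial chaperonin pair and to the main ER chaperones, with Dnajb6 as the remaining member that holds a heat shock element. Each is printed on the strand of its gene with 5 flanking bases on each side, and capitals mark the element. The Hspe1 stretch holds 2 overlapping matches in 18 bases, and it is also the Hspd1 stretch read on the other strand, since these genes are transcribed away from each other. It lies 89 to 72 bases before the Hspe1 start. Hsph1 has more than 1 listed start, and its element lies 16 to 28 bases after 1 of them and 37 to 49 bases after another. The Hspa5 element lies 65 to 47 bases before its start. Hsp90b1 holds 2 ER stress elements, 212 to 194 and 107 to 89 bases before its start, and both are shown, the nearer one lying on the other strand. A match is a description of letters and not a shown binding site, and a window without a match says only that these letters are not in it.
Hsph1, minus strand, chr5:149636283-149636305: gcagaTTCTGGAAAGTTCtcctc
Hspe1, plus strand, chr1:55088054-55088081: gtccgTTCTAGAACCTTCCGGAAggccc
Dnajb6, plus strand, chr5:29735847-29735869: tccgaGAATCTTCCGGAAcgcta
Hspa5, plus strand, chr2:34772020-34772048: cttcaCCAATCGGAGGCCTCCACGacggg
Hsp90b1, minus strand, chr10:86705633-86705661: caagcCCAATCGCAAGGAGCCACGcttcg
Hsp90b1, minus strand, chr10:86705528-86705556: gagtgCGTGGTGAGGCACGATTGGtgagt
Dnajc3, plus strand, chr14:118937822-118937850: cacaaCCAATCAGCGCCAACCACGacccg

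Signals are log2 values on the scale of the deposited table. The array medians lay between 6.54 and 6.63, and the negative control probe sets had medians of 6.47 to 6.83 and 95th percentiles of 10.35 to 10.79. Arrays of 1 group correlated at 0.9948 to 0.9972 over all transcript clusters. A log2 fold change had a median standard error of 0.165 over the members and 0.187 over all transcript clusters. Of 12 fibroblast markers, 10 exceeded the 95th percentile of the negative controls on all 16 arrays, while Pdgfra did so on 6 arrays and Lum on 0. A group was called not well above background for a gene when both of its arrays were at or below the array's negative control median. By that measure all 8 keratinocyte markers, 5 of 7 macrophage markers, 5 of 6 endothelial markers and 5 of 6 muscle markers were not well above background in any group. The fibroblast markers themselves moved with treatment. Called lower (limma adjusted p under 0.05) were 8 of the 12 with 120 µM G, 5 with 120 µM K, 3 with 60 µM K, 4 with the 60 µM mixture and 5 with the 120 µM mixture, and 1 was called higher with 60 µM K. The log2 of their summed signal was 18.83 to 18.87 with 120 µM G and 18.79 to 18.83 with the 120 µM mixture, against 19.29 to 19.31 in 0.05% DMSO and 19.28 to 19.35 in 0.1% DMSO. The summed macrophage markers read 11.66 to 11.71 with 120 µM G, against 9.66 to 9.67 in 0.05% DMSO, which was mostly Cd68, a lysosomal protein. Ptprc, Adgre1, Csf1r, Itgam and Fcgr1 were not well above background in any group. Lyz2, the remaining macrophage marker, had a mean of 7.42 and was not well above background in 1 group only. The part of these cell type markers in the results below was not tested.

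The members covered almost the whole range of the array, and 56 of the 72 had a mean above the median of all transcript clusters. Hspa8, the constitutive cytosolic HSP70, was the brightest member with a mean of 18.08 and stood at rank 5 of 22206. Hspa5, the ER HSP70 also called BiP, followed at 17.24 (rank 25), and Hsp90b1, the ER HSP90, at 16.43 (rank 114). At the other end were Dnajb3 (3.45), Dnajc22 (3.66) and Hspa1l (3.97). For 15 members no group was well above background, among them Hspb3, Hspb7 and Hspb9, and for 4 more (Hspa12b, Hspb2, Dnajb5 and Dnajc28) this held for some groups only. Levels of different genes come from different probes, so this order is of array signals and not of transcript numbers.

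**Figure D1:**
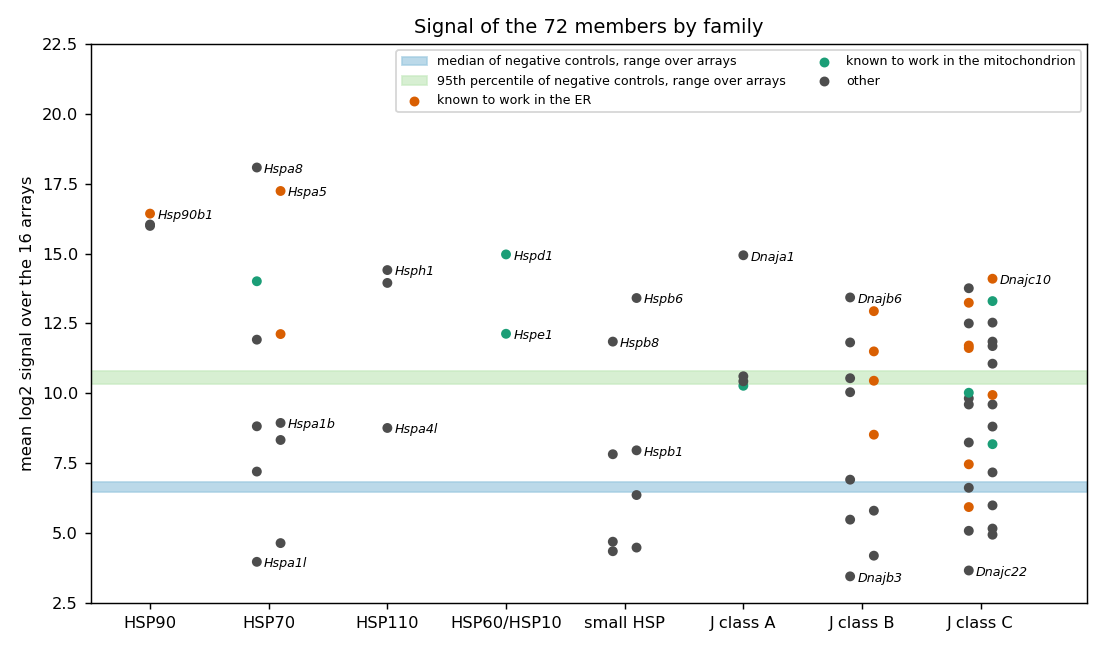
Mean log2 signal over the 16 arrays (vertical axis) of each of the 72 members, 1 point a gene, by family; point colour gives the compartment and the bands give the range over arrays of the median and the 95th percentile of the negative controls. The HSP90 genes, Hspa8 and Hspa5 lie at the top, and every family of 8 or more members reaches below the lower band.

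Against their DMSO controls, more members were called at 120 µM than at 60 µM of each agent, and the calls went both ways. Of the 27 members called in at least 1 treatment, 13 rose and 14 fell, and none was called in both directions. With limma and an adjusted p under 0.05 over all transcript clusters, 60 µM G raised 1 member and lowered 7 (of all transcript clusters 3.84% rose and 4.48% fell). With 120 µM G, 9 rose and 5 fell (7.94% and 7.80% of all). With 60 µM K, 5 rose and 6 fell (5.72% and 4.40% of all), and with 120 µM K, 7 rose and 9 fell (8.98% and 8.00% of all). The 60 µM mixture raised 9 and lowered 9 (9.23% and 8.57% of all), and the 120 µM mixture raised 10 and lowered 11 (10.1% and 9.48% of all). As shares of the 72 members, the calls in either direction came to 11.1%, 19.4%, 15.3%, 22.2%, 25% and 29.2% in that order of treatments, beside 8.32%, 15.7%, 10.1%, 17.0%, 17.8% and 19.6% of all transcript clusters. The members were brighter than most genes on the array. The median log2 fold change of the members lay between -0.12 and -0.02 in the 6 comparisons and that of all transcript clusters between -0.04 and 0.01. No call was made in any of the 6 comparisons for 45 of the 72 members, which is a share close to the 64.7% of all transcript clusters called in none. Pairs of arrays that do not overlap are common here. Both treated arrays lay above both controls for 25.3% to 27.4% of all transcript clusters in these comparisons, and below for 24.9% to 32%. Between K and G at matched doses these shares were 24.4% to 27.6%, and between the doses of G 23.5% and 22.7%. The comparisons with single compounds share their 2 control arrays, as do those with mixtures, so their values are given side by side.

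**Figure D2:**
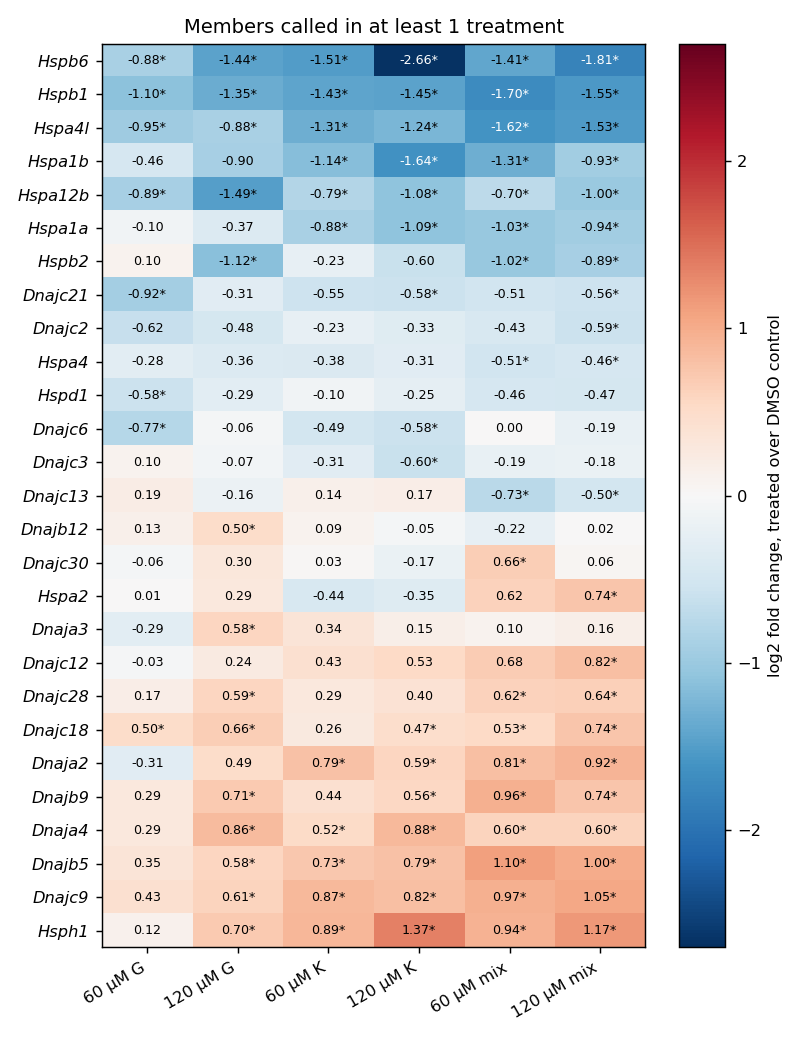
log2 fold change of treated cultures over their DMSO control (colour and printed value; star, limma adjusted p under 0.05) for the members called in at least 1 of the 6 treatments, ordered by their mean. Hspb6, Hspb1 and Hspa4l stand at the top as the lowered genes and Hsph1 at the foot with 1.37 at 120 µM K; Dnajc6 was not well above background in any group, and the values of Hspa12b, Hspb2, Dnajb5 and Dnajc28 are fitted values that include groups at background.

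Among the small HSPs, Hspb6 and Hspb1 fell in every treatment. Hspb6, known chiefly from smooth and heart muscle, read 11.82 and 12.23 with 120 µM K and 13.16 and 13.19 with 60 µM K, against 14.52 and 14.84 in 0.05% DMSO. It read 13.35 and 13.14 with 120 µM G and 13.79 and 13.80 with 60 µM G. With the mixtures it read 12.65 and 12.79 at 120 µM and 13.16 and 13.08 at 60 µM, against 14.46 and 14.60 in 0.1% DMSO. All 12 treated arrays lay below all 4 control arrays, and 120 µM K gave the lowest pair. Its log2 fold change with 120 µM K was -2.66 ± 0.16 (SE), which is 0.158-fold (limma adjusted p = 1.9e-07) and the largest change of any member in any treatment. The others were -1.81 with the 120 µM mixture (adjusted p = 5e-06), -1.51 with 60 µM K (4.6e-05), -1.44 with 120 µM G (3.8e-05), -1.41 with the 60 µM mixture (5.7e-05) and -0.88 with 60 µM G (0.0048). The call with 60 µM G was lost without replicate 2 of 0.05% DMSO (adjusted p = 0.062). The other 5 held without any 1 of their arrays.

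Hspb1, a stress-inducible small HSP that also acts on actin filaments, was dimmer and fell by a more even amount. It read 7.89 and 7.51 with 120 µM K, 7.75 and 7.69 with 60 µM K, 7.85 and 7.76 with 120 µM G, and 8.30 and 7.80 with 60 µM G, against 9.10 and 9.20 in 0.05% DMSO. With the mixtures it read 7.20 and 7.39 at 120 µM and 7.17 and 7.11 at 60 µM, against 8.98 and 8.70 in 0.1% DMSO. Again no treated array reached a control array. Hspb1 fell to 0.342-fold with the 120 µM mixture (log2 -1.55 ± 0.18, adjusted p = 4.4e-05), 0.308-fold with the 60 µM mixture (-1.70, 2.7e-05), 0.365-fold with 120 µM K (-1.45, 7e-05) and 0.370-fold with 60 µM K (-1.43, 0.00016). With G it fell to 0.393-fold at 120 µM (-1.35, 0.00014) and 0.466-fold at 60 µM (-1.10, 0.0023). These calls held without any 1 array.

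Hspb2, a small HSP of muscle, lay near the negative controls. It read 5.72 and 5.69 with 120 µM G, against 6.92 and 6.72 in 0.05% DMSO, and was called lower there (adjusted p = 0.0033). It was also called lower with the 60 µM mixture (adjusted p = 0.0063) and the 120 µM mixture (0.012). In these 3 treated groups it was not well above background, so only a bound can be given, at most 0.931-fold, 0.894-fold and 0.946-fold. Both calls with mixtures were lost without replicate 1 of 0.1% DMSO or replicate 1 of the mixture, and that at 120 µM also without the other mixture array (adjusted p up to 0.07 and 0.12). Hspb8, partner of Bag3 in the selective autophagy of misfolded proteins, stood at -0.48 with 120 µM G (adjusted p = 0.07) and between -0.42 and 0.06 in the other treatments, and was not called. Hspb11, which has the symbol but serves in the cilium, was not called either, and Hspb3, Hspb7 and Hspb9 were not well above background.

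**Figure D3:**
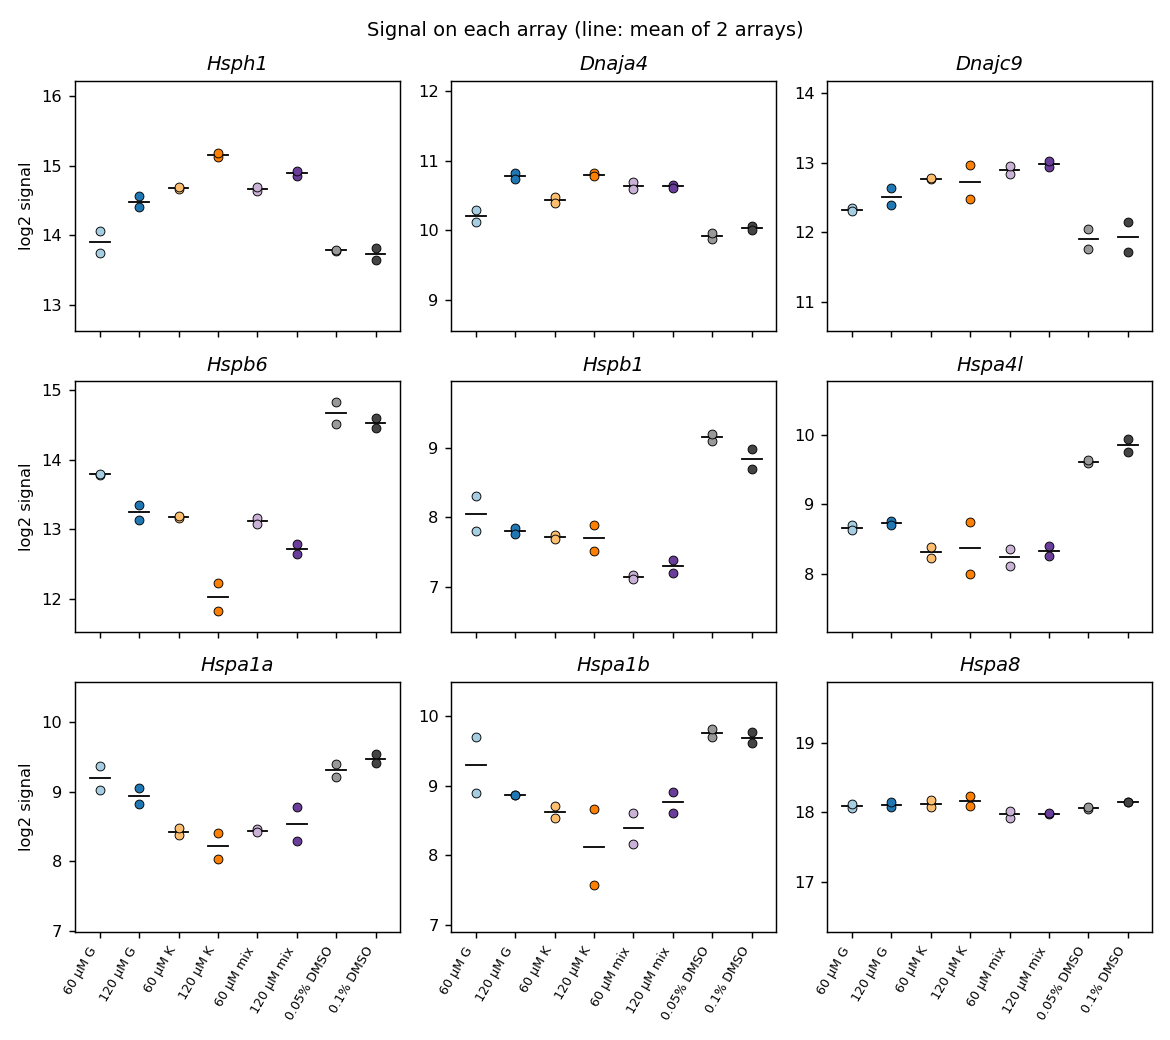
log2 signal (vertical axis, the same span in each panel) of 9 members on each of the 16 arrays, 1 point an array and a line at the mean of 2, with the treated groups left of the DMSO groups. Hspb6, Hspb1 and Hspa4l lie below the DMSO arrays in all 6 treatments, Hsph1 lies above them in all but 60 µM G, and Hspa8 stays between 17.92 and 18.23.

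Of the 11 HSP70 genes, 4 were called in at least 1 treatment: Hspa1a, Hspa1b and Hspa12b downward and Hspa2 upward. Over all transcript clusters, 64.7% were called in no treatment. Whether this count, or those of the other families and compartments below, differ from that background was not tested. The constitutive Hspa8 was not called, and its log2 fold changes lay between -0.18 (60 µM mixture, 95% interval -0.44 to 0.09, adjusted p = 0.36) and 0.10 (120 µM K, -0.16 to 0.37, 0.65). The highest signal of any transcript cluster on any array was 18.43, close to that of Hspa8, and whether the array could register a rise at that level was not tested. The stress-inducible pair Hspa1a and Hspa1b lay far lower. Hspa1a read 8.03 and 8.41 with 120 µM K and 8.38 and 8.48 with 60 µM K, against 9.40 and 9.22 in 0.05% DMSO. With the mixtures it read 8.29 and 8.78 at 120 µM and 8.47 and 8.42 at 60 µM, against 9.54 and 9.41 in 0.1% DMSO. All 8 of these treated arrays lay below the control arrays. With 120 µM G the values of 8.83 and 9.06 also lay below the 0.05% DMSO arrays. With 60 µM G the values of 9.38 and 9.03 overlapped the controls. Hspa1a fell to 0.471-fold with 120 µM K (log2 -1.09 ± 0.19, adjusted p = 0.0011), 0.544-fold with 60 µM K (-0.88, 0.0082), 0.521-fold with the 120 µM mixture (-0.94, 0.003) and 0.491-fold with the 60 µM mixture (-1.03, 0.002). With G its values were -0.37 at 120 µM (adjusted p = 0.24) and -0.10 at 60 µM (0.81), neither called. The call with 60 µM K was lost without replicate 1 of 60 µM K or replicate 1 of 0.05% DMSO (adjusted p up to 0.071), and that with the 120 µM mixture without replicate 1 of the mixture (0.051).

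Hspa1b also fell with K and with the mixtures, with a wider spread between arrays. It read 7.57 and 8.67 with 120 µM K and 8.54 and 8.71 with 60 µM K, against 9.70 and 9.82 in 0.05% DMSO, and fell to 0.322-fold (log2 -1.64 ± 0.31, adjusted p = 0.0018) and 0.455-fold (-1.14, 0.029). With the mixtures it fell to 0.524-fold at 120 µM (-0.93, 0.046) and 0.404-fold at 60 µM (-1.31, 0.0091). With G it stood at -0.90 at 120 µM (adjusted p = 0.063) and -0.46 at 60 µM (0.42), where 1 array read 9.70 and the other 8.90. The calls with 60 µM K and with the 120 µM mixture were lost without any 1 of their 4 arrays (adjusted p up to 0.16 and 0.22), and that with the 60 µM mixture without replicate 1 of the mixture (0.089). Hspa1a and Hspa1b are near-identical copies. The array's annotation marks neither for cross-hybridisation, but their values should be read as those of a pair.

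Hspa12b, a distant HSP70 relative known from endothelial cells, fell in every treatment. It read 6.67 and 6.58 with 120 µM G and 7.27 and 7.18 with 60 µM G, against 8.12 and 8.11 in 0.05% DMSO. Treated arrays were below their own controls throughout, although the 0.1% DMSO arrays read only 7.74 and 7.60. The log2 fold changes were -0.89 with 60 µM G (adjusted p = 0.0014), -1.08 with 120 µM K (7.9e-05), -0.79 with 60 µM K (0.0017) and -0.70 with the 60 µM mixture (0.0028). With 120 µM G (5.5e-06) and the 120 µM mixture (0.00016) it was not well above background, so the levels there were at most 0.381-fold and 0.535-fold. Set against 0.1% DMSO instead, the calls with 60 µM G (-0.44, adjusted p = 0.059) and 60 µM K (-0.34, 0.11) were lost. The log2 of the summed endothelial markers lay between 7.78 and 8.21 over the 16 arrays, and their part in this result was not tested. Hspa2, an HSP70 best known from the testis, was called higher with the 120 µM mixture only, reading 8.61 and 8.69, against 8.16 and 7.66 in 0.1% DMSO (1.67-fold, adjusted p = 0.022). This call was lost without replicate 2 of 0.1% DMSO or either mixture array (adjusted p up to 0.2), and against 0.05% DMSO, which read 8.25 and 8.56, the difference was 0.24 (0.51).

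The 3 HSP90 genes gave no call. The cytosolic Hsp90aa1, the inducible form, read 15.79 and 15.91 with the 60 µM mixture, against 16.26 and 16.28 in 0.1% DMSO, a difference of -0.42 (95% interval -0.72 to -0.12, adjusted p = 0.051). Its other 5 values lay between -0.38 and -0.22. Hsp90ab1, the constitutive form, lay between -0.33 and 0.01, and Hsp90b1 between -0.31 and 0.04. The lowest bound of any of their 95% intervals was -0.72, that of Hsp90aa1 with the 60 µM mixture.

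The HSP110 genes, nucleotide exchange factors of HSP70, moved in opposite directions. Hsph1 read 15.12 and 15.19 with 120 µM K and 14.67 and 14.69 with 60 µM K, against 13.78 and 13.79 in 0.05% DMSO. It read 14.41 and 14.56 with 120 µM G and 14.06 and 13.74 with 60 µM G. With the mixtures it read 14.86 and 14.93 at 120 µM and 14.64 and 14.70 at 60 µM, against 13.81 and 13.65 in 0.1% DMSO. The 60 µM G arrays straddled their controls and all other treated arrays lay above theirs. Hsph1 rose 2.59-fold with 120 µM K (log2 1.37 ± 0.14, adjusted p = 1.2e-05), 1.86-fold with 60 µM K (0.89, 0.00084), 1.63-fold with 120 µM G (0.70, 0.003), 2.24-fold with the 120 µM mixture (1.17, 5.4e-05) and 1.92-fold with the 60 µM mixture (0.94, 0.00042). It stood at 0.12 with 60 µM G (adjusted p = 0.68). All 5 calls held without any 1 array.

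Hspa4l, known as an osmotic stress protein, read 8.00 and 8.75 with 120 µM K, 8.23 and 8.39 with 60 µM K, 8.76 and 8.71 with 120 µM G, and 8.70 and 8.63 with 60 µM G, against 9.59 and 9.64 in 0.05% DMSO. With the mixtures it read 8.26 and 8.40 at 120 µM and 8.12 and 8.36 at 60 µM, against 9.94 and 9.76 in 0.1% DMSO. Every treated array lay below the controls. It fell to between 0.326-fold with the 60 µM mixture (log2 -1.62 ± 0.20, adjusted p = 8.3e-05) and 0.542-fold with 120 µM G (-0.88, 0.0067). The call with 60 µM G (-0.95, 0.0088) was lost without replicate 2 of 60 µM G or replicate 2 of 0.05% DMSO (adjusted p up to 0.064). Hspa4, the constitutive member, was called lower with the mixtures only, at 0.725-fold at 120 µM (-0.46, 0.019) and 0.701-fold at 60 µM (-0.51, 0.012). The call at 120 µM was lost without any 1 of its 4 arrays (adjusted p up to 0.11) and that at 60 µM without either mixture array or replicate 1 of 0.1% DMSO (0.075). Against 0.05% DMSO both were lost (0.092 and 0.063). For the single compounds Hspa4 stood between -0.38 and -0.28, not called. Its treated arrays, single compounds included, read 13.74 to 13.99, all below the 14.16 to 14.36 of the controls.

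The 7 members listed as mitochondrial gave 2 calls in the 6 comparisons. The chaperonin Hspd1 read 14.53 and 14.69 with 60 µM G, against 15.25 and 15.12 in 0.05% DMSO, and fell to 0.671-fold (log2 -0.58 ± 0.16, adjusted p = 0.046). Leaving out any 1 of the 4 arrays ended that call (adjusted p up to 0.19), as did quantile normalization (0.055). In the other treatments Hspd1 stood between -0.47 and -0.10. Hspe1, its lid, read 11.86 and 12.04 with 60 µM G, against 12.30 and 12.39 in 0.05% DMSO (-0.40, adjusted p = 0.12), and lay between -0.24 and -0.14 elsewhere. Hspa9, the mitochondrial HSP70, read 13.74 and 13.38 with 60 µM G, against 14.01 and 14.20 in 0.05% DMSO (-0.54, adjusted p = 0.058). Dnaja3, its J protein, read 10.55 and 10.95 with 120 µM G, against 10.23 and 10.12 in 0.05% DMSO, and rose 1.49-fold (0.58, 0.022). That call was lost without replicate 2 of 120 µM G or either 0.05% DMSO array (adjusted p up to 0.22). Dnajc11, Dnajc15 and Dnajc19 were not called.

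Of the 4 class A J proteins, which carry a zinc finger beside the J domain, 3 gave calls and all were upward. Dnaja4 read 10.82 and 10.78 with 120 µM K and 10.82 and 10.74 with 120 µM G, against 9.88 and 9.96 in 0.05% DMSO. Its lower doses read 10.48 and 10.40 with 60 µM K and 10.30 and 10.12 with 60 µM G, and all of these arrays lay above the controls. It rose 1.84-fold with 120 µM K (log2 0.88 ± 0.13, adjusted p = 0.00023), 1.82-fold with 120 µM G (0.86, 0.00031), 1.44-fold with 60 µM K (0.52, 0.017), 1.51-fold with the 120 µM mixture (0.60, 0.0044) and 1.52-fold with the 60 µM mixture (0.60, 0.0047). Only the call with 60 µM K was lost on leaving out an array, without any 1 of the 4 (adjusted p up to 0.12). Dnaja2 read 11.01 and 10.97 with 60 µM K, against 10.32 and 10.09 in 0.05% DMSO, and 11.23 and 11.01 with the 120 µM mixture, against 10.18 and 10.22 in 0.1% DMSO. These arrays did not overlap, whereas 60 µM G gave lower values of 10.06 and 9.72. It rose 1.89-fold with the 120 µM mixture (0.92, 0.0034), 1.76-fold with the 60 µM mixture (0.81, 0.0086), 1.73-fold with 60 µM K (0.79, 0.016) and 1.51-fold with 120 µM K (0.59, 0.045). The call with 60 µM K was lost without either of its arrays or replicate 2 of 0.05% DMSO (adjusted p up to 0.13). That with 120 µM K was lost without its replicate 2 or either 0.05% DMSO array (up to 0.36), and that with the 60 µM mixture without its replicate 2 (0.069). Dnaja1, the brightest of the class at 14.94, stood between -0.29 and -0.04 and was not called.

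Of the 13 class B J proteins, which share the J domain but lack the zinc finger of class A, the stress-inducible Dnajb1 gave no call. Its values lay between -0.46 with 60 µM G (adjusted p = 0.14) and 0.24 with the 60 µM mixture (0.41). Dnajb5, a near relative of Dnajb1, read 7.02 and 7.37 with the 120 µM mixture and 7.14 and 7.47 with the 60 µM mixture, against 6.28 and 6.13 in 0.1% DMSO. In both DMSO groups it was not well above background, and all treated arrays read higher than the controls. It was at least 1.59-fold higher with the 120 µM mixture (adjusted p = 0.00044), 1.71-fold with the 60 µM mixture (0.00025), 1.58-fold with 120 µM K (0.0024), 1.52-fold with 60 µM K (0.0069) and 1.37-fold with 120 µM G (0.018). The call with 120 µM G was lost without any 1 of its 4 arrays (adjusted p up to 0.089) and that with 60 µM K without replicate 1 of 60 µM K (0.059). Dnajb6, which keeps aggregation-prone proteins soluble, stood between 0.08 and 0.44 and was not called.

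Among the 28 class C J proteins, which share little beyond the J domain, Dnajc9 gave the largest rise. This histone chaperone read 12.94 and 13.03 with the 120 µM mixture and 12.84 and 12.95 with the 60 µM mixture, against 12.14 and 11.72 in 0.1% DMSO. It read 12.47 and 12.96 with 120 µM K, 12.76 and 12.78 with 60 µM K, and 12.63 and 12.39 with 120 µM G, against 12.04 and 11.76 in 0.05% DMSO. These 10 treated arrays all lay above the controls. It rose 2.08-fold with the 120 µM mixture (log2 1.05 ± 0.19, adjusted p = 0.0012), 1.96-fold with the 60 µM mixture (0.97, 0.0025), 1.76-fold with 120 µM K (0.82, 0.0069), 1.83-fold with 60 µM K (0.87, 0.0074) and 1.53-fold with 120 µM G (0.61, 0.037). The call with 120 µM G was lost without any 1 of its 4 arrays (adjusted p up to 0.24). Those with 120 µM K and 60 µM K were lost without replicate 2 of the K group or replicate 2 of 0.05% DMSO (up to 0.084 and 0.082).

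The other class C calls were smaller or rested on fewer treatments. Dnajc28 lay near the negative controls, and was called higher with 120 µM G (adjusted p = 0.026), the 60 µM mixture (0.02) and the 120 µM mixture (0.015), at least 1.31-fold, 1.19-fold and 1.21-fold. The first was lost without any 1 of its 4 arrays (adjusted p up to 0.14), the other two without replicate 2 of the mixture or of 0.1% DMSO (0.15 and 0.13). Dnajc12 rose with the 120 µM mixture (1.77-fold, adjusted p = 0.039) and Dnajc30 with the 60 µM mixture (1.57-fold, 0.028). The Dnajc12 call was lost without either mixture array or replicate 2 of 0.1% DMSO (up to 0.38), the Dnajc30 call without replicate 1 of the mixture or replicate 2 of 0.1% DMSO (up to 0.26), and the Dnajc30 call also against 0.05% DMSO (0.25). Downward, Dnajc21, a factor of ribosome assembly, read 9.44 and 9.17 with 60 µM G, against 10.33 and 10.13 in 0.05% DMSO, and fell to 0.528-fold (adjusted p = 0.0077). It also fell with 120 µM K (0.668-fold, 0.046) and the 120 µM mixture (0.677-fold, 0.048). Dnajc2, which binds the ribosome, fell with the 120 µM mixture to 0.665-fold (0.034). Dnajc13, an endosome protein, fell with the 120 µM mixture to 0.709-fold (0.045) and with the 60 µM mixture to 0.604-fold (0.0069). Dnajc6, the clathrin-uncoating auxilin of neurons, was called lower with 60 µM G and 120 µM K, but no group was well above background and no fold is given.

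Each of these falls lost its call on leaving out an array. Dnajc21 lost the call with 60 µM G without replicate 2 of 60 µM G or replicate 1 of 0.05% DMSO (adjusted p up to 0.076), that with 120 µM K without its replicate 1 or either 0.05% DMSO array (0.32), and that with the 120 µM mixture without its replicate 2 or either 0.1% DMSO array (0.35). Dnajc2 lost its call without either mixture array or replicate 2 of 0.1% DMSO (0.27). Dnajc13 lost that with the 120 µM mixture without either mixture array or replicate 1 of 0.1% DMSO (0.29) and that with the 60 µM mixture without replicate 1 of the mixture or of 0.1% DMSO (0.066). Against 0.05% DMSO the calls of Dnajc28, Dnajc2, Dnajc13 and Dnajc21 with mixtures were lost too (adjusted p 0.082 to 0.64), Dnajc13 standing at -0.14 with the 120 µM mixture. Dnajc6 lost the call with 60 µM G without replicate 2 of 60 µM G or either 0.05% DMSO array (0.11), that with 120 µM K without any 1 of the 4 arrays (0.18), and both when set against 0.1% DMSO (0.089 and 0.24).

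Of the 14 ER members, Dnajb9 and Dnajc18 gave calls in most treatments. Dnajb9, an ER partner of Hspa5 that the unfolded protein response induces, read 13.34 and 13.32 with the 60 µM mixture and 13.03 and 13.19 with the 120 µM mixture, against 12.21 and 12.53 in 0.1% DMSO. It read 13.19 and 13.30 with 120 µM G and 12.95 and 13.24 with 120 µM K, against 12.52 and 12.57 in 0.05% DMSO. None of these arrays overlapped the controls. Dnajb9 rose 1.94-fold with the 60 µM mixture (log2 0.96 ± 0.15, adjusted p = 0.00058), 1.67-fold with the 120 µM mixture (0.74, 0.0031), 1.63-fold with 120 µM G (0.71, 0.0046) and 1.47-fold with 120 µM K (0.56, 0.019). The call with 120 µM K was lost without its replicate 2 or either 0.05% DMSO array (adjusted p up to 0.15). Dnajc18, of the ER membrane, rose 1.67-fold with the 120 µM mixture (0.0016), 1.58-fold with 120 µM G (0.0037), 1.45-fold with the 60 µM mixture (0.015), 1.42-fold with 60 µM G (0.036) and 1.38-fold with 120 µM K (0.029). The last 2 were lost without any 1 of their 4 arrays (adjusted p up to 0.18 and 0.14), and that with the 60 µM mixture without either mixture array or replicate 2 of 0.1% DMSO (0.087).

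Hspa5 and Hsp90b1, whose promoter stretches with ER stress elements are printed above, were not called. Hspa5 read 17.35 and 17.47 with the 120 µM mixture, against 17.19 and 16.95 in 0.1% DMSO (0.34, 95% interval 0.06 to 0.62, adjusted p = 0.086), and lay between 0.04 and 0.19 with single compounds. Dnajc3, an ER co-chaperone that also restrains the kinase PERK, read 12.64 and 12.89 with 120 µM K, against 13.42 and 13.31 in 0.05% DMSO, and fell to 0.659-fold (adjusted p = 0.0085). That call was lost without replicate 1 of 120 µM K or replicate 1 of 0.05% DMSO (adjusted p up to 0.088). Dnajb12 rose with 120 µM G to 11.72 and 12.01, against 11.36 and 11.38 in 0.05% DMSO (1.41-fold, 0.034), a call lost without replicate 2 of 120 µM G or either 0.05% DMSO array (up to 0.25), and against 0.1% DMSO (0.18). The brightest J protein of the ER, Dnajc10, had a mean of 14.10 and stood between -0.01 and 0.16.

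Outside the members, 20 further genes of ER chaperones and the unfolded protein response were read. With 120 µM G, 5 of them rose and 1 fell, with the 120 µM mixture 4 rose, with 120 µM K 2 rose and 1 fell, and in each of the other 3 treatments 1 rose and 1 fell. The shares called in either direction, 30% with 120 µM G, 20% with the 120 µM mixture, 15% with 120 µM K and 10% in the others, stand beside 15.7%, 19.6% and 17.0% of all transcript clusters and, for 60 µM G, 60 µM K and the 60 µM mixture, 8.32%, 10.1% and 17.8%. The median log2 fold change of the list lay between 0.00 and 0.17. Ddit3, which encodes the stress factor CHOP and is named for its values, rose with 120 µM G by 2.16 on the log2 scale (adjusted p = 3.6e-07) and with 60 µM G by 0.87 (0.0017), fell with the 60 µM mixture by 0.77 (0.0014), and stood at -0.17 and -0.35 with 120 µM and 60 µM K. Atf6, an ER stress sensor, rose with 120 µM G by 0.83 (0.0018). These calls held without any 1 array. Xbp1, a factor of the same response, fell by 1.13 with 120 µM G (0.00013), 0.84 with 60 µM G (0.004), 0.90 with 120 µM K (0.00077) and 0.66 with 60 µM K (0.012), and stood at -0.40 and -0.27 with the 120 µM and 60 µM mixtures. Its call with 60 µM K was lost without replicate 1 of 60 µM K or replicate 2 of 0.05% DMSO (adjusted p up to 0.11), and both calls at 60 µM were lost against 0.1% DMSO (0.056 with G and 0.18 with K). Hyou1, an ER relative of HSP110, rose by 0.44 with 120 µM G (0.035), 0.54 with 120 µM K (0.01), 0.56 with 60 µM K (0.013) and 0.41 with the 120 µM mixture (0.04). Those with 120 µM G and the 120 µM mixture were lost without any 1 of their 4 arrays (up to 0.17 and 0.22), that with 120 µM K without replicate 1 of 120 µM K or replicate 2 of 0.05% DMSO (0.065), and that with 60 µM K without replicate 2 of 60 µM K or either 0.05% DMSO array (0.1). All 3 with single compounds were lost against 0.1% DMSO (0.12 to 0.33).

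Of 6 genes of heat shock factors and their binding protein, Hsf1, the main stress factor, was called only with 120 µM K, where it fell by 0.64 (adjusted p = 0.011). That call was lost without replicate 2 of 120 µM K or replicate 1 of 0.05% DMSO (up to 0.095), and against 0.1% DMSO (0.079). Hsf2 rose with 120 µM G by 0.49 (0.044) and with the 120 µM mixture by 0.47 (0.047). These were lost without replicate 1 of 120 µM G or either 0.05% DMSO array (up to 0.36), and without any 1 of the 4 arrays (up to 0.2). Of 23 co-chaperones of HSP70 and HSP90, 60 µM G lowered 3, and 120 µM G lowered 4 and raised 1. With 120 µM K, 2 fell and 1 rose, with 60 µM K 1 rose, and with each mixture 1 fell and 1 rose. These are 21.7% called with 120 µM G and 13% with 60 µM G (15.7% and 8.32% of all transcript clusters). With 120 µM and 60 µM K they are 13% and 4.35% (17.0% and 10.1% of all), and with each mixture 8.7% (19.6% of all at 120 µM and 17.8% at 60 µM). With 23 genes, 1 call is 4.35% of the list, and whether these shares differ from the background was not tested. Cdc37l1, a relative of the HSP90 kinase adaptor, rose by 1.02 with the 120 µM mixture (0.0017), 0.82 with the 60 µM mixture (0.0083), 0.89 with 120 µM K (0.0047) and 0.90 with 60 µM K (0.0072). The first held without any 1 array, that with the 60 µM mixture was lost without replicate 2 of the mixture or of 0.1% DMSO (up to 0.098), that with 120 µM K without its replicate 2 (0.059), and that with 60 µM K without replicate 1 of 60 µM K or of 0.05% DMSO (0.069). Cacybp, which binds a ubiquitin ligase and has an HSP90 co-chaperone fold, fell by 0.77 with the 60 µM mixture (0.0027), a call that held without any 1 array but not against 0.05% DMSO (0.057).

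Of 14 genes of the cytosolic chaperonin TRiC and prefoldin, which fold actin and tubulin, the 120 µM mixture lowered 6 and the 60 µM mixture 4, 60 µM G lowered 2, 120 µM K lowered 1, 120 µM G raised 1, and no call was made with 60 µM K (limma; 1 gene had an unadjusted p under 0.05). As shares these are 42.9% and 28.6% with the 120 µM and 60 µM mixtures (19.6% and 17.8% of all transcript clusters), 14.3% with 60 µM G (8.32%) and 7.14% with 120 µM K and 120 µM G (17.0% and 15.7%). Cct6a fell by 0.73 with the 120 µM mixture (adjusted p = 0.0049) and 0.78 with the 60 µM mixture (0.0036). The call at 120 µM was lost without replicate 1 of the mixture (0.053), and both were lost against 0.05% DMSO (0.096 and 0.071). Pfdn4, a prefoldin subunit, rose by 0.73 with 120 µM G (0.002), which held without any 1 array. Of 12 mitochondrial protein quality genes, 3 rose and 1 fell with 120 µM G, with 120 µM K and with the 120 µM mixture, 2 rose and 1 fell with the 60 µM mixture, 1 rose and 1 fell with 60 µM K, and no call was made with 60 µM G (limma; 3 genes had an unadjusted p under 0.05). These are shares of 33.3% in each treatment at 120 µM, 25% with the 60 µM mixture and 16.7% with 60 µM K, beside the 15.7% to 19.6%, 17.8% and 10.1% of all transcript clusters. Htra2, a protease, fell by 1.19 with the 120 µM mixture (0.00012), 0.94 with the 60 µM mixture (0.00095), 0.96 with 120 µM K (0.00062), 0.75 with 60 µM K (0.0069) and 0.77 with 120 µM G (0.0035), and stood at -0.52 with 60 µM G (0.055). Only the call with 60 µM K was lost on leaving out an array, replicate 1 of 60 µM K or of 0.05% DMSO (up to 0.083). Hscb, the J protein that serves iron-sulphur clusters and falls outside the symbol rule, was not well above background in DMSO. It was at least 1.41-fold higher with 120 µM K (0.00033) and 1.43-fold with the 120 µM mixture (0.0028), and was also called higher with 120 µM G (0.00089). These 3 calls held without any 1 array. Those with 60 µM K (0.014) and the 60 µM mixture (0.013) were lost without replicate 1 of 60 µM K or either 0.05% DMSO array (up to 0.15), and without either mixture array or replicate 2 of 0.1% DMSO (0.13). Spg7, a protease of the inner membrane, rose by 0.92 with 120 µM K (0.011), 0.69 with the 120 µM mixture (0.044) and 0.78 with the 60 µM mixture (0.028), and Grpel2, an exchange factor of Hspa9, by 0.93 with 120 µM G (0.0059) and 0.65 with the 120 µM mixture (0.037). For Spg7 these were lost without replicate 2 of 120 µM K or of 0.05% DMSO (up to 0.11), and without either mixture array or replicate 2 of 0.1% DMSO (0.43 at 120 µM and 0.29 at 60 µM). For Grpel2 they were lost without replicate 2 of 120 µM G (0.065), and without either array of 0.1% DMSO or replicate 2 of the mixture (0.39).

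K and G were compared directly at matched doses, where no control array enters. At 60 µM, K gave 4 members higher and 2 lower than G (4.78% and 3.39% of all transcript clusters), and at 120 µM 2 higher and 5 lower (5.21% and 4.57% of all). These shares of members, 8.33% and 9.72% in either direction, were close to the 8.17% and 9.78% of all transcript clusters. Hsph1 read 15.12 and 15.19 with 120 µM K, against 14.41 and 14.56 with 120 µM G, and 14.67 and 14.69 with 60 µM K, against 14.06 and 13.74 with 60 µM G. Neither pair overlapped, and K was higher 1.59-fold at 120 µM (log2 0.67 ± 0.14, limma adjusted p = 0.0069) and 1.71-fold at 60 µM (0.77, 0.0039). The first was lost without replicate 1 of 120 µM G (adjusted p = 0.067) and the second without replicate 2 of 60 µM G (0.053). Hspb6 was lower with K, 0.428-fold at 120 µM (-1.22 ± 0.16, 0.0003), which held without any 1 array, and 0.647-fold at 60 µM (-0.63, 0.032), which was lost without any 1 of the 4 arrays (up to 0.15). Hspa1a was lower with K at both doses, 0.607-fold at 120 µM (-0.72, 0.027) and 0.585-fold at 60 µM (-0.77, 0.023). Its call at 120 µM was lost without either G array or replicate 1 of 120 µM K (up to 0.21), and that at 60 µM without replicate 1 of 60 µM G or either K array (up to 0.14).

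The other differences between the compounds were called at 1 dose. At 60 µM, Dnaja2 was 2.14-fold higher with K (log2 1.10 ± 0.19, adjusted p = 0.0028), which held without any 1 array, Hspa9 1.64-fold (0.71, 0.017) and Dnaja3 1.55-fold (0.63, 0.026). Hspa9 read 14.34 and 14.20 with 60 µM K, against 13.74 and 13.38 with 60 µM G. The 0.05% DMSO arrays read 14.01 and 14.20, above both G arrays and level with the lower K array. Against DMSO, Hspa9 was called with neither compound. The Hspa9 call between K and G was lost without either K array or replicate 2 of 60 µM G (up to 0.16). That of Dnaja3 was lost without any 1 of the 4 arrays (up to 0.13). At 120 µM, Dnajb2, a J protein that binds ubiquitin, read 10.47 and 10.48 with K, against 9.71 and 9.64 with G (1.74-fold, 0.015). Dnajb12 (0.684-fold, 0.03), Dnajc3 (0.692-fold, 0.028) and Hspa13 (0.717-fold, 0.04), all of the ER, were lower with K. The Dnajb2 and Hspa13 calls were lost without any 1 of the 4 arrays (up to 0.082 and 0.22), that of Dnajb12 without replicate 2 of 120 µM G or either K array (0.21), and that of Dnajc3 without either G array or replicate 1 of 120 µM K (0.2). Where the compounds gave no call, the intervals bound the difference: for Hspb1 it was -0.11 at 120 µM (95% interval -0.49 to 0.28) and -0.33 at 60 µM (-0.72 to 0.06), and for Dnaja2 at 120 µM it was 0.11 (-0.30 to 0.51).

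**Figure D4:**
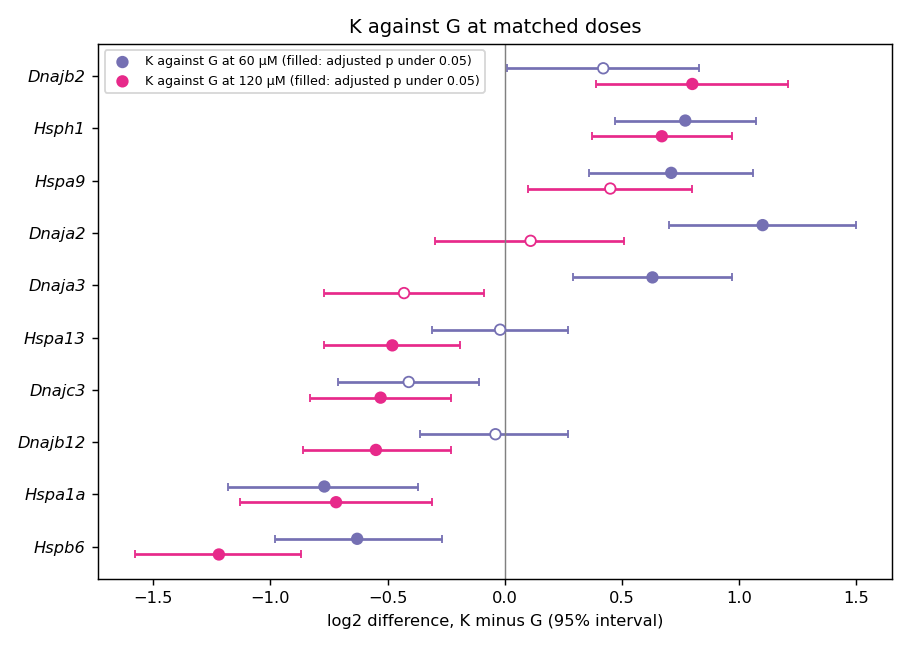
log2 difference of K minus G (horizontal axis, bars 95% interval) at 60 µM and at 120 µM for the members called in at least 1 of these comparisons; filled points have a limma adjusted p under 0.05. Hsph1 lies right of 0 and Hspa1a and Hspb6 lie left of 0 at both doses, while Dnaja3 changes side.

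Between the doses, 7 members were called for G and 1 for K. With 120 µM G against 60 µM G, 5 members were higher and 2 lower (1.57% and 1.98% of all transcript clusters, 3.54% in either direction). Dnaja3 read 10.55 and 10.95 with 120 µM G, against 9.80 and 9.96 with 60 µM G (1.83-fold, adjusted p = 0.0072), and Dnaja2 10.59 and 10.79, against 10.06 and 9.72 (1.74-fold, 0.033). Neither overlapped. Hsph1 (by 0.58 on the log2 scale, 0.036) and Dnaja4 (1.49-fold, 0.024) were higher too, as was Dnajc6 (0.044), which was not well above background. Hspb2 (at most 0.872-fold, 0.0084) and Hspa12b (at most 0.706-fold, 0.028) were lower. Every one of these 7 calls was lost on leaving out an array: those of Dnaja2, Dnajc6 and Hspa12b without any 1 of the 4 (up to 0.21, 0.21 and 0.13), those of Hsph1, Dnaja4 and Hspb2 without replicate 2 of 60 µM G or either 120 µM array (up to 0.23, 0.15 and 0.082), and that of Dnaja3 without replicate 1 of 60 µM G or replicate 2 of 120 µM G (0.076). For K, only Hspb6 differed, lower at 120 µM than at 60 µM (log2 -1.15, 0.451-fold, adjusted p = 0.0093; 0.270% of all transcript clusters were called, 0.0405% higher and 0.230% lower). It was lost without either 60 µM K array or replicate 1 of 120 µM K (up to 0.16). In the mixture no member passed limma's threshold (0% of all transcript clusters did; 6 members had an unadjusted p under 0.05). The dose steps of K and G were also set against each other, and no member passed (0.0315% of all did; 9 members at an unadjusted p under 0.05). The lowest adjusted p was that of Dnaja3, 0.11, with a step lower for K by 1.06, so the difference between the compounds in their dose steps is not shown.

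At matched total dose, members were called between the mixture and G at 60 µM only. There 2 members were higher and 5 lower in the mixture than with G (4.18% and 3.17% of all transcript clusters, 7.35% in either direction). Dnaja2 read 10.95 and 11.08 in the mixture, against 10.06 and 9.72 with G (2.18-fold, adjusted p = 0.0033), and held without any 1 array. Hsph1 read 14.64 and 14.70, against 14.06 and 13.74 (1.70-fold, 0.0052). Lower in the mixture were Hspb1 (0.533-fold, 0.009), Hspb6 (0.625-fold, 0.025), Hspa1a (0.592-fold, 0.029), Dnajc13 (0.675-fold, 0.049) and Hspb2 (at most 0.850-fold, 0.011). On leaving out an array, Hsph1 was lost without replicate 2 of either group (up to 0.065), Hspb1 without replicate 1 of G or replicate 2 of the mixture (0.075), Hspb2 without replicate 2 of G or replicate 1 of the mixture (0.094), Hspa1a without replicate 1 of G or either mixture array (0.16), and Hspb6 and Dnajc13 without any 1 of the 4 (0.15 and 0.22). Against K at 60 µM no member passed limma's threshold (0.0901% of all did, 0.0360% higher and 0.0540% lower; 10 members at an unadjusted p under 0.05). At 120 µM none passed against G (7.33% of all did, 4.53% higher and 2.80% lower; 11 members unadjusted) or against K (0.684% of all, 0.432% higher and 0.252% lower; 9 members unadjusted). Hspb6 came nearest, with the 120 µM mixture 0.70 above 120 µM K (95% interval 0.35 to 1.05, adjusted p = 0.073) and 0.53 below 120 µM G (-0.88 to -0.17, 0.075).

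The 120 µM mixture holds 60 µM of each compound, so its log2 fold change was also set against the sum of those of 60 µM G and 60 µM K. No member differed from the sum (limma; 0.0405% of all transcript clusters did; 9 members at an unadjusted p under 0.05). The standard errors of 0.25 to 0.72 in this contrast are wide. For Hspb1 the mixture stood 0.99 above the sum (95% interval 0.21 to 1.77, adjusted p = 0.39) and for Hsph1 0.15 above (-0.45 to 0.75, 0.9). Between the DMSO controls, 0.1% against 0.05%, no member was called (0.00450% of all were; 7 members at an unadjusted p under 0.05), and the lowest adjusted p, 0.34, was that of Hspa12b at -0.45.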

How the data were processed

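RNA of 16 cultures, 2 per group, was read on Clariom S mouse arrays. The deposited table holds log2 signals per transcript cluster, made by the authors with RMA (column names read sst-rma-gene-full; the submitters' processing notes name Affymetrix Expression Console and Transcriptome Analysis Console, versions not given). RMA already normalizes between arrays, which removes any shift shared by most genes. The value table of the series held the same values within rounding. Control probe sets (6640 of 28846) were left out of the tests.

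A model with 1 mean per group was fitted to all 22206 annotated transcript clusters and 16 arrays with limma 3.58.1 in R 4.3.3 (lmFit, eBayes, 8 residual and 5.81 prior degrees of freedom). P-values were adjusted by Benjamini-Hochberg over all clusters within each of 18 comparisons, and calls had an adjusted p under 0.05. Error terms are standard errors, or 95% intervals. Arrays give no counts, so the number of arrays limits the precision, and members near the negative controls give only bounds. The script was tested on simulated data with 200 changed genes.

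The members and the gene lists were chosen with earlier results of these data known. Named with values were 16 core chaperones, the members with the largest changes among those called, per list up to 3 other genes each way by their mean change, and the 3 brightest and dimmest members. Of the genes picked from the lists in this way, Bag2, Stip1, Tomm34, Cct3, Tcp1 and Sdf2l1 are not given values above. Dnajc10, Dnajb6, Dnajb4, Dnajc17, Hspb11, Ddit3, the other called members, the 3 further mitochondrial J proteins and the small HSPs below background were named after their values were seen. Alternatives were quantile normalization, clusters above the median signal, eBayes with trend and robust settings, only the groups compared, a replicate block, other control arrays, a fold criterion and leaving out each array.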

Additional observations from a re-analysis of the deposited data

How the results depend on the processing

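No called result turned its direction under any alternative run. The counts in this section are of members only, and the shares of all transcript clusters under the same settings are not given. They show how far the counts moved and are no result about the members. The lists in this paragraph name only some comparisons, and a comparison left out need not have kept its reported count. With quantile normalization, the members called for the 120 µM mixture against G came to 1, where 0 were reported. With only the clusters above the median signal, they came to 22 for 120 µM G against DMSO, 13 for K against G at 120 µM, 12, 5 and 2 for the mixture against G at 60 µM, against G at 120 µM and against K at 120 µM, and 1 for the dose steps of K and G. With trend and robust settings in eBayes, they came to 2 for 120 against 60 µM K, 11, 3 and 3 for the same comparisons of the mixture, and 1 for the dose steps. Fitting only the groups compared, which leaves fewer arrays to estimate the spread, gave 5 for 60 µM G, 10 for 120 µM K, 11 for the 60 µM mixture, 13 for the 120 µM mixture, 3 and 2 for K against G at 60 and 120 µM, 1 and 0 for the doses of G and of K, and 3 for the mixture against G at 60 µM. By fold alone (above 1.3 or below 0.7, no test), 13 members passed for 60 µM G, 17 for 60 µM K, 26 for 120 µM K, 15 and 13 for K against G at 60 and 120 µM, 12, 3 and 5 for the doses of G, K and the mixture, 18 and 4 for the mixture against G and K at 60 µM, 10 and 10 at 120 µM, 23 for the sum, 11 for the dose steps and 4 between the DMSO controls.

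Leaving out 1 array at a time, the calls against DMSO numbered 3 to 8 for 60 µM G (lowest without its replicate 2), 9 to 12 for 120 µM G (without its replicate 2), 6 to 8 for 60 µM K (without its replicate 1), 10 to 12 for 120 µM K (without replicate 2 of 0.05% DMSO), 12 to 19 for the 60 µM mixture and 13 to 18 for the 120 µM mixture (each without its replicate 1). They numbered 2 to 3 and 2 to 7 for K against G at 60 and 120 µM, 0 to 3 and 0 to 1 for the doses of G and K, 2 to 4 and 0 to 1 for the mixture against G at 60 and 120 µM, 0 to 1 for the mixture against K at 120 µM, and 0 to 0 for the others. Against the other DMSO control, 35 calls of named genes were lost and 20 gained.

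The labels number the replicates alike in all groups. Deviations of same-numbered arrays correlated at -0.14 to 0.14 (median 0.01, 28 pairs), so the numbers were not taken as pairs. With the replicate block the counts were 9 for 60 µM G, 15 for 120 µM G and 8 for K against G at 120 µM, each 1 more than reported, and the other counts were the same. Members that lost a call under it were Dnaja2 (adjusted p = 0.055) and Dnajc21 (0.053) with 120 µM K, and Dnajc21 with the 120 µM mixture (0.055). Members that gained one were Dnajc2 with 60 µM G (0.032), Dnajb6 with 120 µM G (0.05, rounded up) and 120 µM K (0.049), Dnajb4 with 120 µM K (0.022) and in K against G at 120 µM (0.029), and Dnajc17 with the 120 µM mixture (0.04). Each member has 1 transcript cluster, so averaging clusters of a symbol was not run. The precision is limited by 2 arrays a group, and members near the negative controls give only bounds.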
